A study of Mus musculus with 35 samples.

Results

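Krt6a, Krt6b, Krt16 and Krt17, the stress keratins, were followed against Krt5 and Krt14, the keratins of the basal epidermal layer, in 35 RNA-seq libraries of mouse skin wounds. The 6 genes were chosen by symbol from 22830 gene symbols, and each has 1 row in each count table. No rule on their measured values was used, but earlier results of these data were known. The study asked how loss of type V collagen in fibroblasts changes skin repair. Col5a1CKO mice carry Col1a2CreERT, a tamoxifen-inducible Cre driven by a collagen enhancer active in fibroblasts, and 2 floxed Col5a1 alleles (Col5a1 fl/fl). WT mice are Cre-negative Col5a1 fl/fl littermates, so that both genotypes share the floxed alleles, tamoxifen and a full-thickness dorsal excision. Male and female animals of 8 to 12 weeks were used, and RNA came from a 6 mm punch of the middle of the wound or scar.

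Day 14 after wounding was sampled in 7 WT wounds, 7 Col5a1CKO wounds and 3 Col5a1CKO wounds that had been injected with WT fibroblasts, and day 19 in 3 of either genotype. A separate experiment had 4 WT wounds with vehicle (PBS), 4 Col5a1CKO wounds with vehicle and 4 Col5a1CKO wounds with cilengitide, an inhibitor of integrins alpha v beta 3 and alpha v beta 5 given daily from the day before wounding. These 12 wounds were also harvested at day 14. Legends of the paper also list 7 WT and 7 Col5a1CKO wounds of day 14 as given vehicle, which the sample titles do not state. Its methods give PBS as the control for mice without fibroblasts. Below, vehicle names only the experiment of 12 wounds, and untreated means not injected with fibroblasts. One label field places the fibroblasts on the day 19 Col5a1CKO wounds, whereas the titles and column headers place them on day 14, which was followed here. The 2 tables were normalized separately, and levels are compared only within a table. The libraries of the first table fall into 2 sets, a lower and an upper one, by the level of GC-rich against GC-poor genes. Both genotypes at day 14 have wounds in each set, whereas all fibroblast-treated and day 19 wounds are in the upper one. A wound had between 15043531 and 35700325 counts in the first table and between 51211600 and 68266760 in the second.

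Keratins are intermediate filament proteins that assemble as pairs of a type II and a type I chain. Krt5 (type II) and Krt14 (type I) form the filaments of dividing basal keratinocytes. Krt6a and Krt6b (type II) pair with Krt16 and Krt17 (type I), are kept to hair follicles, palms, soles and oral epithelium in intact tissue, and are induced in keratinocytes at a wound edge. A wound with more epidermis therefore holds more of all 6 transcripts, whereas activation of the keratinocytes shows as more stress keratin per basal keratin. For this reason the ratio of the summed counts of the 4 stress keratins to those of the 2 basal keratins was taken within each wound. In such bulk tissue, fewer keratinocytes and less keratin RNA per keratinocyte cannot be told apart from a level alone.

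The type I genes lie together on chromosome 11 and the type II genes on chromosome 15 of mouse build NCBI37, all on the minus strand. Krt14 spans chr11:100064476-100068862, Krt16 chr11:100107405-100110276 and Krt17 chr11:100117531-100122343. Krt6b spans chr15:101506465-101510720, Krt6a chr15:101520363-101524738 and Krt5 chr15:101537501-101543322. Since the reads were 50 bases long, counts of close relatives may be split or lost where such a stretch is the same in both. Below, only the first pair is the same, and the others differ at more bases than the 2 mismatches allowed in alignment. All these stretches are coding, and each lies within a single exon of the GENCODE annotation of that build. They are printed 5′ to 3′ along the transcript, with capitals at the bases where the pair differs. The first pair (chr15:101523439-101523488 and chr15:101509412-101509461, both in exon 2) has the same letters throughout.
Krt6a: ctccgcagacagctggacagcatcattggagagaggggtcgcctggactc
Krt6b: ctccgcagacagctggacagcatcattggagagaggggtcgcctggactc
The next pair, a stress and a basal type II keratin at the median distance of their stretches (chr15:101522134-101522183 and chr15:101540241-101540290, both in exon 6), differs at 9 bases.
Krt6a: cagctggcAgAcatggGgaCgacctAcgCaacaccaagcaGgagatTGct
Krt5: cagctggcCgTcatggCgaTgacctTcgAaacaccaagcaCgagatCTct
The type I pair (chr11:100108047-100108096 and chr11:100065545-100065594, both in exon 6) differs at 5 bases.
Krt16: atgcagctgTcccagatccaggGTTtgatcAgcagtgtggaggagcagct
Krt14: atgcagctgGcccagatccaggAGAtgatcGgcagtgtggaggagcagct

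Over the whole transcript, 49% of the 50-base windows of Krt6a and 45.0% of those of Krt6b are found unchanged in another of 99 other keratin genes. The share was 14.4% for Krt14, 11.9% for Krt16, 7.38% for Krt5 and 3.99% for Krt17. The methods state that a read could align once with up to 2 mismatches, and not whether a read that suits both genes was dropped or placed in one of them. The split between Krt6a and Krt6b is therefore uncertain. Of the windows of Krt14, 48.5% are within 2 mismatches of another keratin gene, against 29.4% for Krt16.

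Across the 23 wounds of the first table, the basal keratins spanned a 3524-fold range, from 12.8 to 44967 CPM (counts scaled to a common library size with TMM factors), and the stress keratins a 2708-fold range, from 15 to 40651 CPM. Their ratio within a wound moved over a 2.59-fold range, from 0.541 to 1.4. In the 12 wounds of the second table the basal keratins spanned a 560-fold range, the stress keratins an 885-fold range and the ratio a 3.89-fold range, from 0.311 to 1.21. Over all wounds of a table the 6 keratins thus moved together. Pairwise Pearson r of log2(CPM + 1) was 0.91 to 0.995 over 23 wounds and 0.908 to 0.998 over 12 wounds. These values describe wounds that share groups. Within vehicle WT wounds the levels moved less alike, as Krt5 spanned 1.33-fold and Krt6b 9.2-fold.

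**Figure D1:**
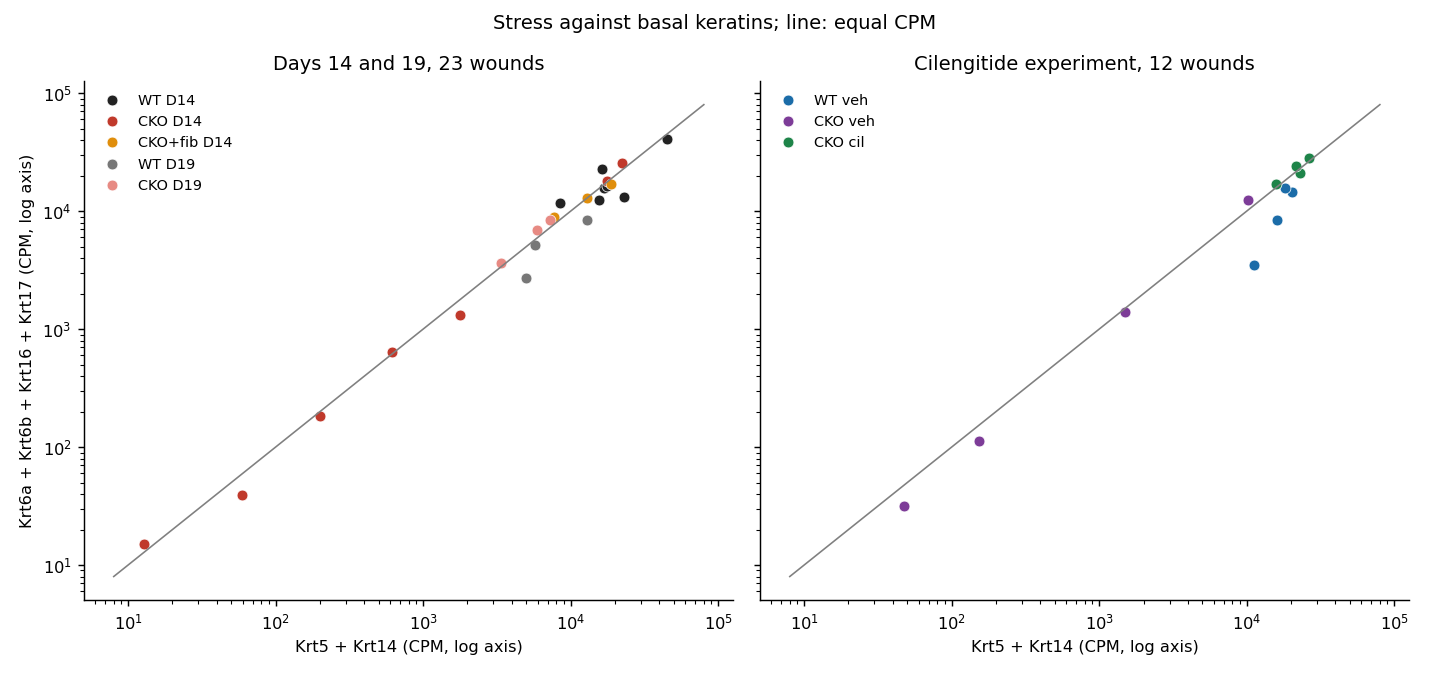
Summed CPM of the 4 stress keratins (y axis, log scale) against summed CPM of Krt5 and Krt14 (x axis, log scale), 1 point per wound, coloured by group, with a line at equal CPM. Points follow the line from 12.8 to 44967 CPM of basal keratin, and the widest departure is a vehicle WT wound with a count ratio of 0.311.

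Per transcript length, Krt14 was the most abundant of the 6 in every group, with a group median of 40.1% to 45.3% of their summed reads per base. Krt16 had a median of 13.0% to 17.5%, Krt6a of 5.5% to 10.9% and Krt17 of 4.82% to 12.3%. Krt6b had a median of 19.4% in day 14 WT wounds and of 7.87% to 14.1% in the other 7 groups. The share of Krt5 ran from 3.23% to 18.6% within day 14 WT wounds and from 13.1% to 33.0% within vehicle WT wounds, but only from 9.43% to 10.2% with cilengitide. The type II keratins together had 0.35 to 0.688 of the reads per base of the type I keratins in every wound of the 35.

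The order of the groups by median CPM was nearly the same for the 6 genes. In the first table, day 14 Col5a1CKO wounds had the lowest median for all 6, and day 14 WT wounds the highest for all but Krt17, which was highest with fibroblasts (1892 against 1424 CPM). Fibroblast-treated wounds ranked next to WT wounds for Krt14, Krt6a, Krt6b and Krt16, and their ranges overlapped. Day 19 WT and Col5a1CKO wounds were neighbours for Krt14, Krt6a, Krt6b, Krt16 and Krt17, with overlapping ranges. In the second table vehicle Col5a1CKO wounds had the lowest median for all 6, and cilengitide wounds the highest for all but Krt5.

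**Figure D2:**
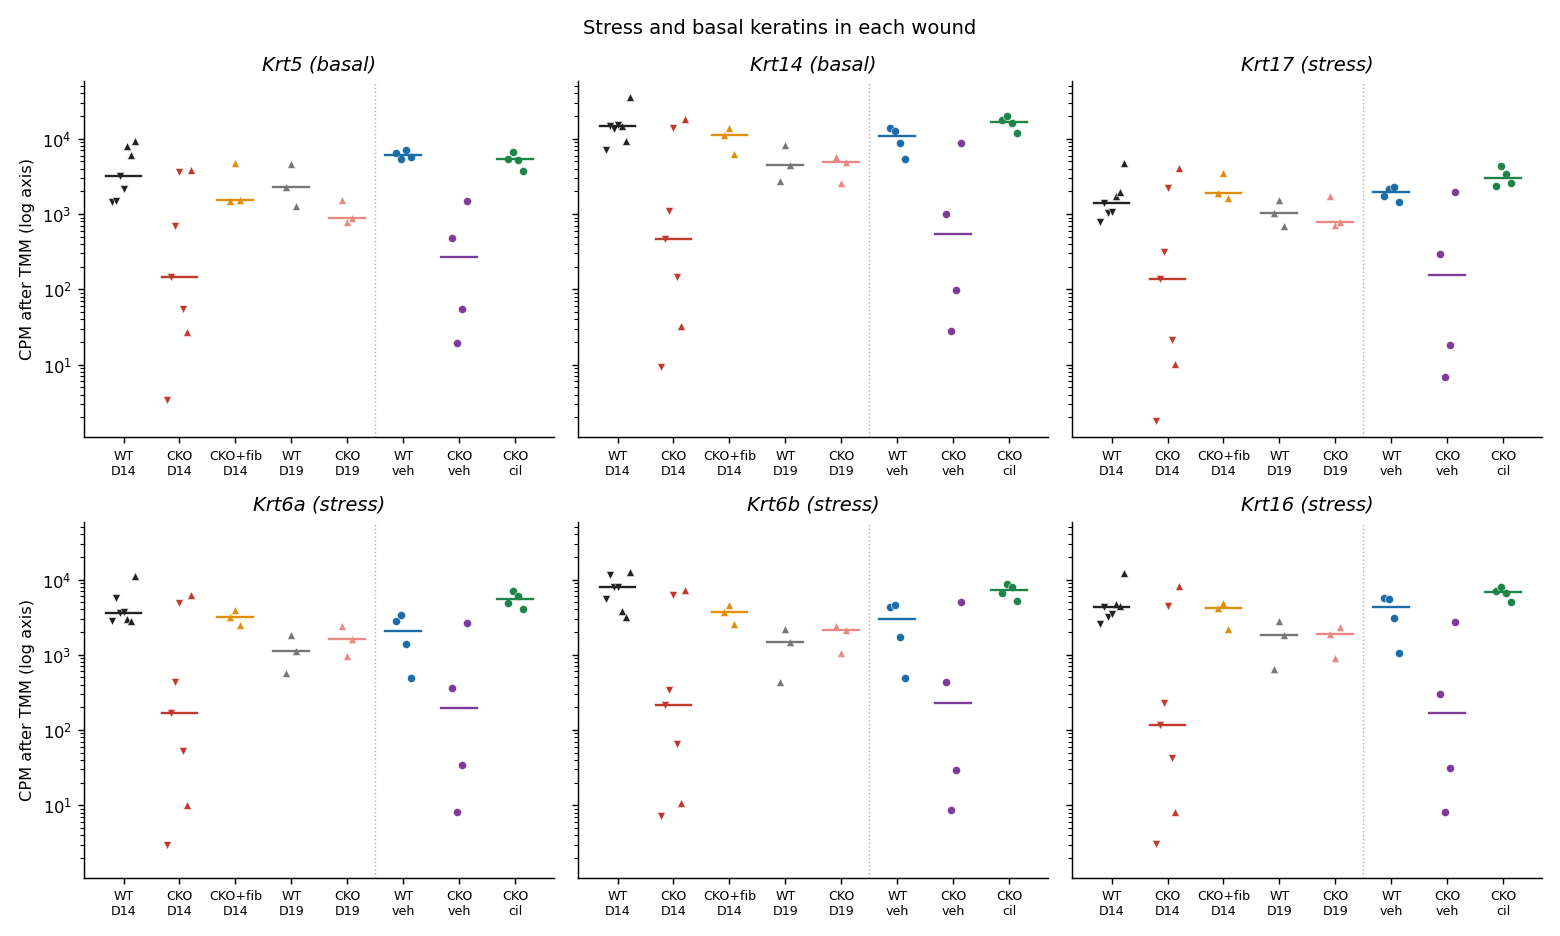
CPM of each keratin (y axis, log scale) in each wound of the 8 groups, with a bar at the group median; triangles point down or up for the 2 library sets of the first table, and circles mark the second table (right of the dotted line), which was scaled separately. In day 14 and vehicle Col5a1CKO wounds the points spread over 77.2-fold to 2680-fold, and within other groups over 1.33-fold to 9.2-fold.

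Comparing genotypes at day 14, the keratins were low in most but not all Col5a1CKO wounds. Krt14 had 7011 CPM at its lowest, 14776 at its median and 35701 at its highest in 7 WT wounds, and 9.41, 472 and 18304 CPM in 7 Col5a1CKO wounds. Krt6b had 3219, 7989 and 12620 CPM in WT and 7.16, 217 and 7293 CPM in Col5a1CKO wounds. In 5 Col5a1CKO wounds (replicates a, b, c, e and f) all 6 keratins lay below every WT wound, whereas replicates d and g, with 14009 and 18304 CPM of Krt14, lay within the WT range. Krt16, the inducible type I partner, had 2588, 4291 and 12229 CPM in WT and 3.06, 116 and 8202 CPM in Col5a1CKO wounds. Krt17, which also marks hair follicles, had 786, 1424 and 4732 CPM against 1.79, 136 and 4041 CPM. The pattern of Krt5 and Krt6a was the same, with lowest, median and highest of 1435, 3198 and 9266 CPM against 3.35, 145 and 3876 CPM for Krt5. For Krt6a they were 2793, 3629 and 11069 CPM against 3.0, 168 and 6280 CPM.

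None of the 6 was called, that is, changed at least 2-fold in edgeR's quasi-likelihood test with an adjusted p (Benjamini-Hochberg) under 0.05, as 8.28% of 14367 genes were, and none was separate (no overlap of CPM between the groups), as 3.92% of genes were. At an unadjusted p under 0.05 the count was also 0 of 6. The log2 fold changes were all negative, from -0.87 (SE 1.19) for Krt17 to -1.88 (SE 1.15) for Krt5, with edgeR adjusted p of 0.304 to 0.672. These fold changes compare means, on which replicates d and g weigh most. On log2 CPM, where every wound weighs alike, limma called 5 of the 6 (15.5% of genes), with log2 fold changes of -4.25 to -5.00 and adjusted p of 0.0206 to 0.0357, and gave -3.83 with adjusted p = 0.0681 for Krt17. DESeq2 called none (14.2% of genes), nor did edgeR with the library set as a covariate (12.9% of genes). The limma fit was added after the spread of the wounds had been seen.

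The stress-to-basal ratio at day 14 spread less than the levels. In Col5a1CKO wounds the ratio spanned 1.78-fold, against 1020-fold to 2680-fold for single keratins. In WT wounds the ratio spanned 2.44-fold, against 3.92-fold to 6.46-fold. It was 0.574 at its lowest, 0.926 at its median and 1.4 at its highest in WT wounds, and 0.662, 1.02 and 1.18 in Col5a1CKO wounds. The ranges overlapped, and the mean log2 ratio differed by -0.02 (SE 0.21). Even replicate a of Col5a1CKO, with 481 counts over the 6 keratins, had a ratio of 1.18 (95% exact binomial interval 0.98 to 1.41, for counting error only), against 1.16 in replicate g with its high levels. The genotype difference of the ratio was -0.25 within the lower set (4 WT, 5 Col5a1CKO) and 0.23 within the upper set (3 WT, 2 Col5a1CKO), with opposite signs.

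Keratinocyte genes other than keratins moved with these levels. The summed CPM of 16 basal keratinocyte genes, among them the hemidesmosome genes Itgb4 and Col17a1 and the epidermal regulator Trp63, was 8453 to 23728 in WT wounds against 492 to 12920 in Col5a1CKO wounds, with none of the 16 at 0 in any wound. In Col5a1CKO replicates a, b, c, e and f the sum was 492 to 2235 CPM and in d and g 11638 and 12920 CPM. One of the 16 was called, Dst, which was higher in Col5a1CKO wounds (log2 fold change 1.15, SE 0.23, edgeR adjusted p = 0.00928) and is a cytolinker gene also expressed in nerve and muscle. The median log2 fold change of the 16 was -1.10, against -0.03 over all genes tested. Neutrophil markers (7 genes) summed to 1146 to 8997 CPM in WT wounds against 1725 to 21352 CPM in Col5a1CKO wounds, and skeletal muscle markers (6 genes) to 13.1 to 9003 against 49.7 to 14364 CPM. Of the neutrophil markers 3 of 7 were called higher in Col5a1CKO wounds, as were 2 of 7 macrophage, 3 of 5 endothelial and 1 of 6 fibroblast markers, with none lower in these lists. Macrophage markers summed to 272 to 899 CPM in WT wounds against 860 to 2040 CPM, endothelial markers to 63.1 to 226 against 217 to 544 CPM and fibroblast markers to 8480 to 84643 against 31478 to 128646 CPM. Hair follicle genes (20 genes) summed to 114 to 12227 CPM in WT wounds against 28.9 to 206 CPM, and 13 of the 17 tested were called lower in Col5a1CKO wounds and none higher. The part of these cells in the keratin levels was not tested.

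**Figure D3:**
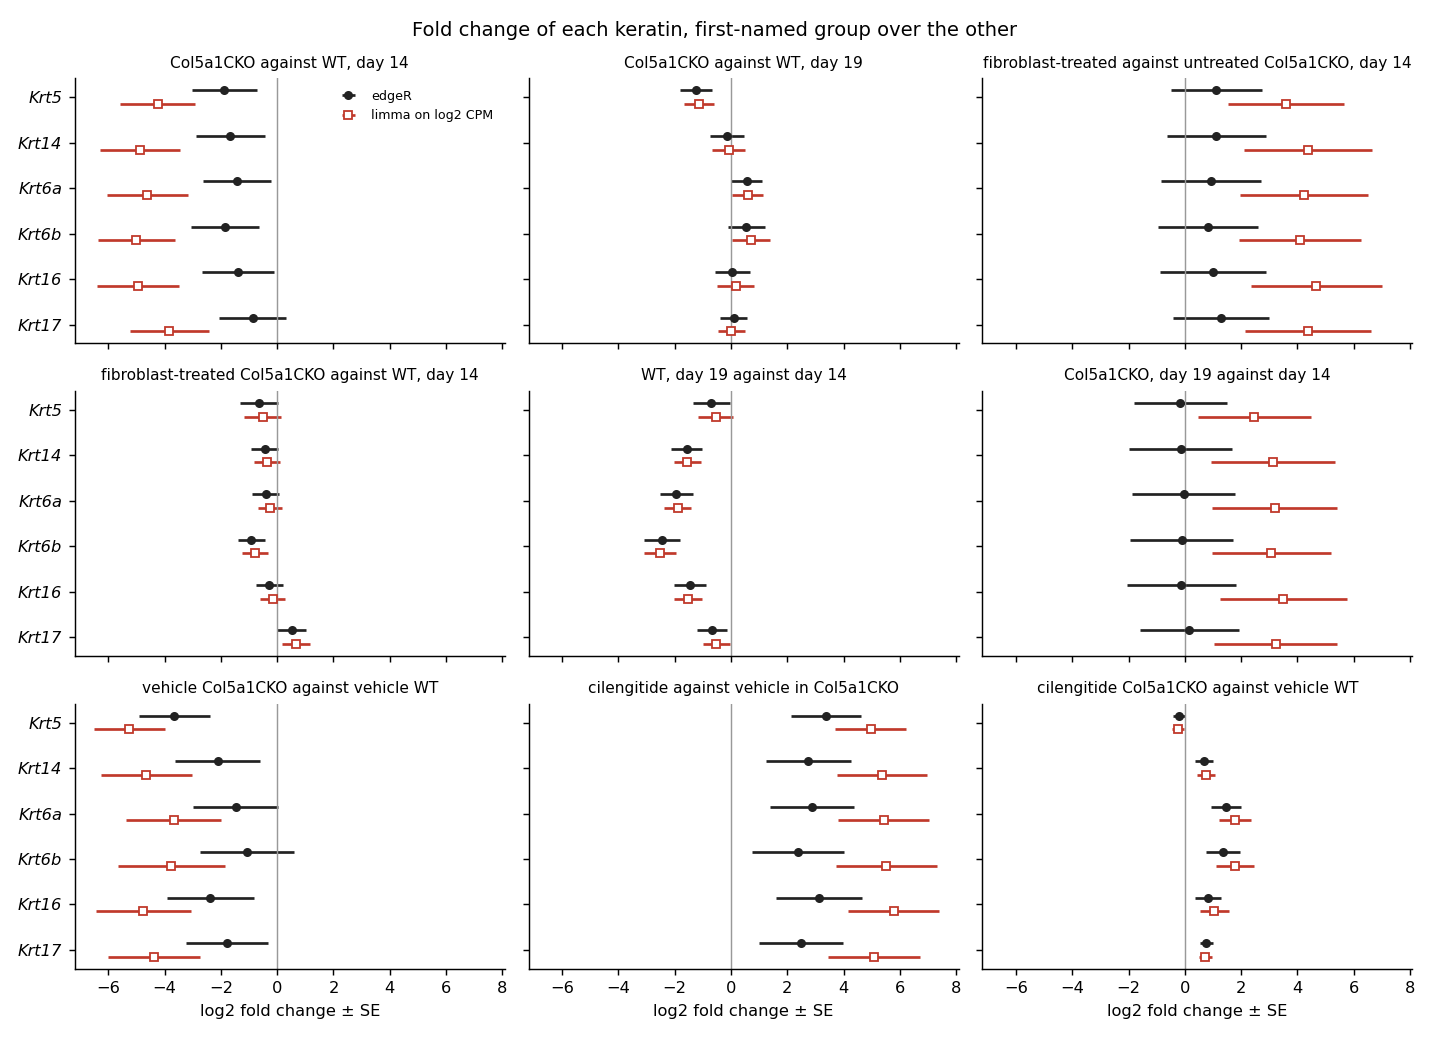
Log2 fold change with its standard error (x axis) of each keratin (y axis) in the 9 comparisons, from edgeR (filled circles, comparing means) and limma on log2 CPM (open squares, comparing mean log levels). The 2 differ most where day 14 or vehicle Col5a1CKO wounds take part, for example -1.67 against -4.86 for Krt14 at day 14, and are close elsewhere.

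Col5a1CKO wounds injected with WT fibroblasts had keratins at or just below the WT range. In the 3 fibroblast-treated wounds Krt14 had 11403, 14130 and 6193 CPM, Krt6a 3172, 3968 and 2491 CPM, and Krt16 4179, 4842 and 2229 CPM. Each of these lay above 5 of the 7 untreated Col5a1CKO wounds and below or between the 2 high ones, and replicate c lay below every WT wound in Krt14, Krt6a, Krt6b and Krt16. Krt17 had 1892, 3509 and 1646 CPM, Krt6b 3757, 4565 and 2560 CPM, and Krt5 1515, 4770 and 1545 CPM. Against untreated Col5a1CKO wounds none of the 6 was called, as was none of 15659 genes (0.0%), and 2001 genes had an unadjusted edgeR p under 0.05, no keratin of the 6 among them. DESeq2 called 19 of 16148 genes (0.118%) and limma none, with none of the 6 keratins among them. The edgeR log2 fold changes were 0.83 for Krt6b to 1.28 for Krt17 with adjusted p of 0.743 to 0.837, and limma gave 3.60 for Krt5 to 4.67 for Krt16 with adjusted p of 0.334 to 0.363. No keratin was separate between the 2 groups (2.1% of genes were).

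All 3 fibroblast-treated libraries are in the upper library set, as are only replicates f and g of the untreated wounds. With the library set as a covariate the log2 fold changes were -0.13 to 0.42, negative for Krt6b (-0.01) and Krt16 (-0.13). The treated wounds had stress-to-basal ratios of 1.01, 0.893 and 1.15, against 0.662, 1.02 and 1.18 at the lowest, median and highest of the untreated wounds, and the mean log2 ratio differed by 0.11 (SE 0.16). Thus neither the levels nor the ratio differed beyond the spread of the untreated wounds. Fibroblast markers (6 genes) summed to 36529 to 47253 CPM in treated and 31478 to 128646 CPM in untreated wounds.

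Against day 14 WT wounds, which share controls with the genotype comparison above, no keratin of the fibroblast-treated wounds was called by edgeR (5.84% of 15317 genes), DESeq2 (13.6%) or limma (7.1%), had an unadjusted edgeR p under 0.05, or was separate (19.8%). The log2 fold changes ran from -0.92 (SE 0.48, edgeR adjusted p = 0.288) for Krt6b to 0.51 (SE 0.52, adjusted p = 0.632) for Krt17. Within the upper library set, which holds 3 WT wounds, Krt5 was called lower in fibroblast-treated wounds (log2 fold change -1.44, edgeR adjusted p = 0.0444; 31.0% of genes called). The fit with the set as a covariate gave -1.43 with adjusted p = 0.0471 (16.7% of genes called), and Krt17 then turned to -0.11. The mean log2 stress-to-basal ratio differed by 0.09 (SE 0.20) from WT and the ranges overlapped.

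At day 19 the levels of the genotypes overlapped and the ratio did not. Krt14 had 2714, 8397 and 4485 CPM in 3 WT wounds and 5731, 2603 and 4994 CPM in 3 Col5a1CKO wounds. Krt6a had 580, 1854 and 1139 CPM against 2379, 952 and 1612 CPM. Krt5 had 2271, 4561 and 1263 CPM in WT against 1554, 777 and 882 CPM. None of the 6 was called by edgeR (0.0198% of 15135 genes, 3 in number) or DESeq2 (9.32% of 15990 genes), or had an unadjusted edgeR p under 0.05, and none was separate (35.2% of genes). The log2 fold changes were -1.23 (SE 0.57, edgeR adjusted p = 0.241) for Krt5, -0.14 (SE 0.60) for Krt14, and 0.56 (SE 0.55, adjusted p = 0.538) and 0.54 (SE 0.66, adjusted p = 0.616) for Krt6a and Krt6b. Those of Krt16 (0.05) and Krt17 (0.09) turned negative under scaling by library size alone (-0.37 and -0.35).

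The stress-to-basal ratio at day 19 was 0.541, 0.646 and 0.895 in the WT wounds and 1.16, 1.07 and 1.17 in the Col5a1CKO wounds. Every Col5a1CKO wound lay above every WT wound, with a difference of 0.74 (SE 0.22) in mean log2 ratio, or 0.63 per transcript length. The ratio is a description over chosen genes and was not tested. With 3 wounds a group, 35.2% of single genes were also separate in this comparison. The separation rested more on the type II than on the type I genes. Krt6a to Krt5 was 0.255, 0.407 and 0.902 in WT and 1.53, 1.22 and 1.83 in Col5a1CKO wounds, a difference of 1.73 on the log2 scale. Krt16 to Krt14 was 0.238, 0.332 and 0.407 against 0.331, 0.35 and 0.466, overlapping, with a difference of 0.25.

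**Figure D4:**
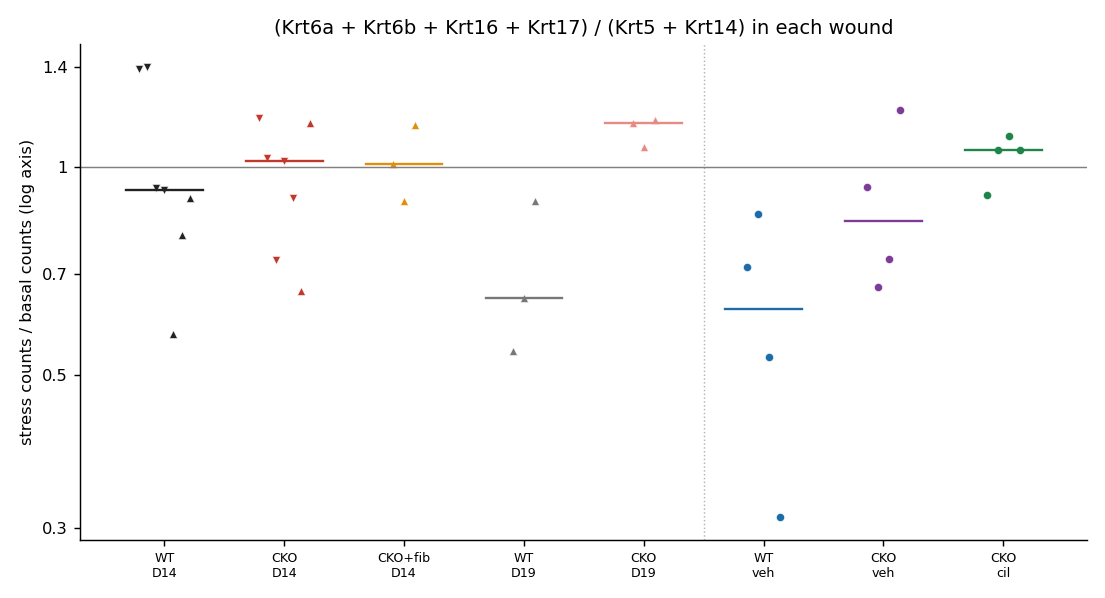
Ratio of stress to basal keratin counts (y axis, log scale) in each wound of the 8 groups, with a bar at the group median and a line at 1; triangles point down or up for the 2 library sets of the first table, and circles mark the second table. All 3 day 19 Col5a1CKO wounds (1.07 to 1.17) lie above the 3 day 19 WT wounds (0.541 to 0.895), and all 4 cilengitide wounds (0.912 to 1.11) above the 4 vehicle WT wounds (0.311 to 0.857).

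Hair follicle genes moved with the day 19 groups. Their summed CPM (20 genes, among them the hair keratin genes and Shh and Lhx2 of the follicle) was 7509, 10608 and 585 in WT and 57.4, 44.8 and 34.3 in Col5a1CKO wounds, with 1 to 5 of the 20 at 0 in the latter. The 2 WT wounds with most of these transcripts had the 2 lowest stress-to-basal ratios (0.541 and 0.646). The outer root sheath of the follicle expresses Krt5, Krt14 and Krt17, and its part in the ratio was not tested. With Krt17 left out, the difference in the ratio was 0.86. None of the 20 follicle genes was called by edgeR at day 19, and all 20 had negative values.

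From day 14 to day 19, 1 stress keratin was called in WT wounds. Krt6b fell, from 3219, 7989 and 12620 CPM (lowest, median and highest of 7) to 435, 2186 and 1483 CPM, a log2 fold change of -2.45 (SE 0.64, edgeR adjusted p = 0.0475). It was the only one of the 6 called (5.74% of 15180 genes, or 4.25% lower), and 3 were separate (19.9% of genes, or 11.4% lower). Those 3 were Krt6a (-1.94, SE 0.57, adjusted p = 0.0672), Krt6b and Krt16 (-1.47, SE 0.57, adjusted p = 0.148), all stress keratins. Separation was judged on CPM scaled over the 2 groups compared. On the printed CPM, scaled over all wounds, Krt16 overlapped, with 2785 CPM in day 19 replicate b and 2588 CPM in day 14 replicate a. Krt14 had -1.58 (SE 0.56, edgeR adjusted p = 0.116), and Krt5 (-0.70, adjusted p = 0.579) and Krt17 (-0.68, adjusted p = 0.482) overlapped between the days. DESeq2 called Krt14, Krt6a and Krt6b (12.6% of genes), and limma Krt6a and Krt6b (6.88%).

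The call of Krt6b rests on single wounds. Leaving out WT day 14 replicate a, b, c, d or g gave adjusted p of 0.0703, 0.0693, 0.0695, 0.0825 and 0.06. Leaving out WT day 19 replicate a, b or c gave 0.215, 0.0749 and 0.199. Its log2 fold change stayed between -2.82 and -1.94. All day 19 libraries are in the upper library set, and within it Krt6b had -2.15 (adjusted p = 0.0785) and no keratin was called. With the set as a covariate, 4 were called (Krt14, Krt6a, Krt6b and Krt16, adjusted p of 0.033 to 0.047; 12.9% of genes). The stress-to-basal ratio was 0.574, 0.926 and 1.4 at day 14 and 0.541, 0.646 and 0.895 at day 19, with overlap and a difference of -0.49 in mean log2 ratio, or -0.14 within the upper set.

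In Col5a1CKO wounds the same comparison gave no call by edgeR (5.72% of 15327 genes), DESeq2 (10.5%), limma (6.02%) or edgeR with the library set as a covariate (1.94%), no unadjusted edgeR p under 0.05 and no separate keratin (17.7%). The edgeR log2 fold changes were -0.16 to 0.16 (adjusted p of 0.966 to 0.991), and the day 14 means rest mainly on replicates d and g. On log2 CPM, limma gave 2.47 for Krt5 to 3.50 for Krt16, all positive, with adjusted p of 0.348 to 0.453. Without replicate d or g the edgeR values of Krt16 were 0.24 and 1.09. The stress-to-basal ratio was 0.662, 1.02 and 1.18 at day 14 and 1.07 to 1.17 at day 19, a difference of 0.28. The genotype effect did not differ detectably between the days for any of the 6 (differences of 0.61 for Krt5 to 2.36 for Krt6b, SE 1.82 to 2.08, edgeR interaction adjusted p of 0.998 to 1.0). None of 15954 genes was called in that test (0.0%), and 938 had an unadjusted edgeR p under 0.05.

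In the cilengitide experiment, vehicle Col5a1CKO wounds again held low keratins in all but 1 wound. Krt5 fell, with 6431, 5342, 7083 and 5780 CPM in the 4 vehicle WT wounds and 481, 19.4, 54.2 and 1496 CPM in the 4 vehicle Col5a1CKO wounds, 12.5-fold lower (log2 fold change -3.65, SE 1.25, edgeR adjusted p = 0.0431). It was 1 of 6 called (30.9% of 15434 genes, or 13.4% lower) and the only one separate (49.7% of genes, or 26.8% lower). Krt14 had 13755, 12833, 8875 and 5437 CPM in WT, and 1005, 28.0, 98.4 and 8720 CPM in Col5a1CKO wounds. Replicate 4 of the latter thus lay within the WT range, and the first 3 below it. The log2 fold changes of the other 5 were -1.08 for Krt6b to -2.37 for Krt16 (adjusted p of 0.238 to 0.613).

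The calls of this comparison turn on single wounds. Without Col5a1CKO vehicle replicate 4, edgeR called 4 of the 6 (Krt5, Krt14, Krt16 and Krt17, adjusted p of 0.0137 to 0.037; 33.7% of genes), and Krt14 had a log2 fold change of -4.78. The call of Krt5 was lost without WT vehicle replicate 1, 2, 3 or 4 (adjusted p = 0.0685, 0.0667, 0.0793 and 0.0683) and without Col5a1CKO vehicle replicate 1 or 3 (0.0949 and 0.0678). On log2 CPM, limma called Krt5, Krt14 and Krt16 (-5.25, -4.65 and -4.76; 33.1% of genes), and DESeq2 called Krt5 (adjusted p = 0.00101; 33.6% of genes). Replicate 4 also had the highest neutrophil marker sum of the group, 44816 CPM against 1587 to 23939 CPM in the other 3. In vehicle WT wounds that sum was 96.2 to 2202 CPM. Between the vehicle groups, 6 of 7 neutrophil, 6 of 7 macrophage, 2 of 6 fibroblast and 2 of 5 endothelial markers were called higher in Col5a1CKO wounds and none lower. Macrophage markers summed to 156 to 562 CPM in vehicle WT against 1180 to 1852 CPM in vehicle Col5a1CKO wounds, and endothelial markers to 47.4 to 336 against 393 to 934 CPM, neither overlapping. The part of these cells in the keratin levels was not tested.

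With cilengitide, all 6 keratins were above every vehicle Col5a1CKO wound. Krt14 had 17600, 19816, 16366 and 12115 CPM in the 4 cilengitide wounds, against 28.0 to 8720 CPM with vehicle. Krt16 had 7085, 7874, 6698 and 5062 CPM against 301, 8.26, 31.0 and 2748 CPM. Krt6a had 4933, 7086, 6047 and 4032 CPM against 364, 8.05, 34.0 and 2623 CPM. The groups did not overlap for 6 of 6, whereas 31.4% of 15563 genes were separate and 18.4% were separate and higher. None was called by edgeR (13.1% of genes), 1 of 6 (Krt5) had an unadjusted p under 0.05, and the fit gave log2 fold changes of 2.38 (SE 1.63, adjusted p = 0.307) for Krt6b to 3.37 (SE 1.23, adjusted p = 0.0782) for Krt5. Without Col5a1CKO vehicle replicate 4, edgeR called all 6 higher (17.5% of genes), with log2 fold changes of 4.84 for Krt5 to 5.89 for Krt16 and adjusted p of 0.0176 to 0.0348. DESeq2 on all wounds called Krt5, Krt6a and Krt16 (adjusted p of 0.00309 to 0.0436; 17.3% of genes), and limma Krt5, Krt14, Krt6a and Krt16 (0.0242 to 0.0411; 15.2%).

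The stress-to-basal ratio changed less than the levels. It was 0.936, 0.67, 0.737 and 1.21 with vehicle and 0.912, 1.06, 1.11 and 1.06 with cilengitide, with overlap and a difference of 0.26 (SE 0.20). Of the 15 single pairs, 3 were separate, Krt16 to Krt14, Krt6a to Krt16 and Krt16 to Krt17 (31.4% of single genes were). All 3 hold Krt16, and 2 of them set it against another stress keratin. Krt16 to Krt14 was 0.3, 0.295, 0.315 and 0.315 with vehicle and 0.403, 0.397, 0.409 and 0.418 with cilengitide. Each group was tight in this pair although its levels with vehicle spread over 312-fold for Krt14. The 16 basal keratinocyte genes summed to 353 to 8446 CPM with vehicle and 10206 to 14729 CPM with cilengitide. Of these 16, 3 were called higher and none lower, with Itgb4, a hemidesmosome integrin, at a log2 fold change of 2.52 (SE 0.71, edgeR adjusted p = 0.0368). Of the 7 neutrophil and 7 macrophage markers, 2 each were called lower with cilengitide than with vehicle and none higher, and of the fibroblast and endothelial markers none was called by edgeR. Their part was not tested.

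Compared with vehicle WT wounds, the same 4 cilengitide wounds had stress keratins within or above the WT range, and Krt5 at 5417, 6676, 5274 and 3730 CPM, 2 of them within and 2 below it. Krt6a had 4032 to 7086 CPM against 2799, 3370, 1371 and 492 CPM in WT, and Krt6b 6585, 8696, 7954 and 5126 CPM against 4310, 4554, 1707 and 495 CPM. Krt17 had 2384, 4410, 3408 and 2626 CPM against 1729, 2184, 2278 and 1435 CPM. These 3 were separate and higher (15.2% of 15514 genes were), and Krt14, Krt16 and Krt5 overlapped. None was called by edgeR (8.58% of genes), 2 of 6 (Krt6a and Krt17) had an unadjusted p under 0.05, and the fit gave log2 fold changes of 1.47 (SE 0.53, adjusted p = 0.0806) for Krt6a, 1.36 (SE 0.61, adjusted p = 0.131) for Krt6b and 0.75 (SE 0.23, adjusted p = 0.0547) for Krt17. Krt5 had -0.22 (SE 0.21, edgeR adjusted p = 0.443). DESeq2 called Krt6a (adjusted p = 0.0134) and Krt6b (0.0421), where it called 14.0% of genes, and gave Krt17 an adjusted p of 0.00981 at under 2-fold. By limma none of the 6 was called (9.86% of genes).

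In vehicle WT wounds the stress-to-basal ratio was 0.717, 0.857, 0.531 and 0.311, below all 4 cilengitide wounds (0.912 to 1.11). The mean log2 ratio was 0.87 higher with cilengitide (SE 0.33), or 0.74 per transcript length, again untested as a score over chosen genes. Single genes were separate in 29.4% of cases in this comparison. As at day 19, the type II pair differed more than the type I pair. Krt6a to Krt5 was 0.435, 0.631, 0.194 and 0.0851 in vehicle WT and 0.911 to 1.15 with cilengitide, a log2 difference of 2.01, and Krt16 to Krt14 differed by 0.30. Between the vehicle groups, 0.311 to 0.857 in WT and 0.67 to 1.21 in Col5a1CKO, the ratios overlapped, with a log2 difference of 0.62 (SE 0.37). There Krt6a to Krt5 differed by 1.56 and Krt16 to Krt14 by -0.11.

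Hair follicle genes again differed beside these ratios. They summed to 144, 7536, 631 and 10328 CPM in vehicle WT wounds, 15.1 to 53.3 CPM in vehicle Col5a1CKO wounds and 237 to 588 CPM with cilengitide. Vehicle WT replicate 4 had the most follicle transcript and the lowest ratio (0.311), but replicate 2, with 7536 CPM, had the highest ratio of its group (0.857). Of 19 follicle genes tested, 17 were called lower in vehicle Col5a1CKO than in vehicle WT wounds and none higher, and 12 of 19 were called higher with cilengitide than with vehicle. Their part in the keratin values was not tested.

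**Figure D5:**
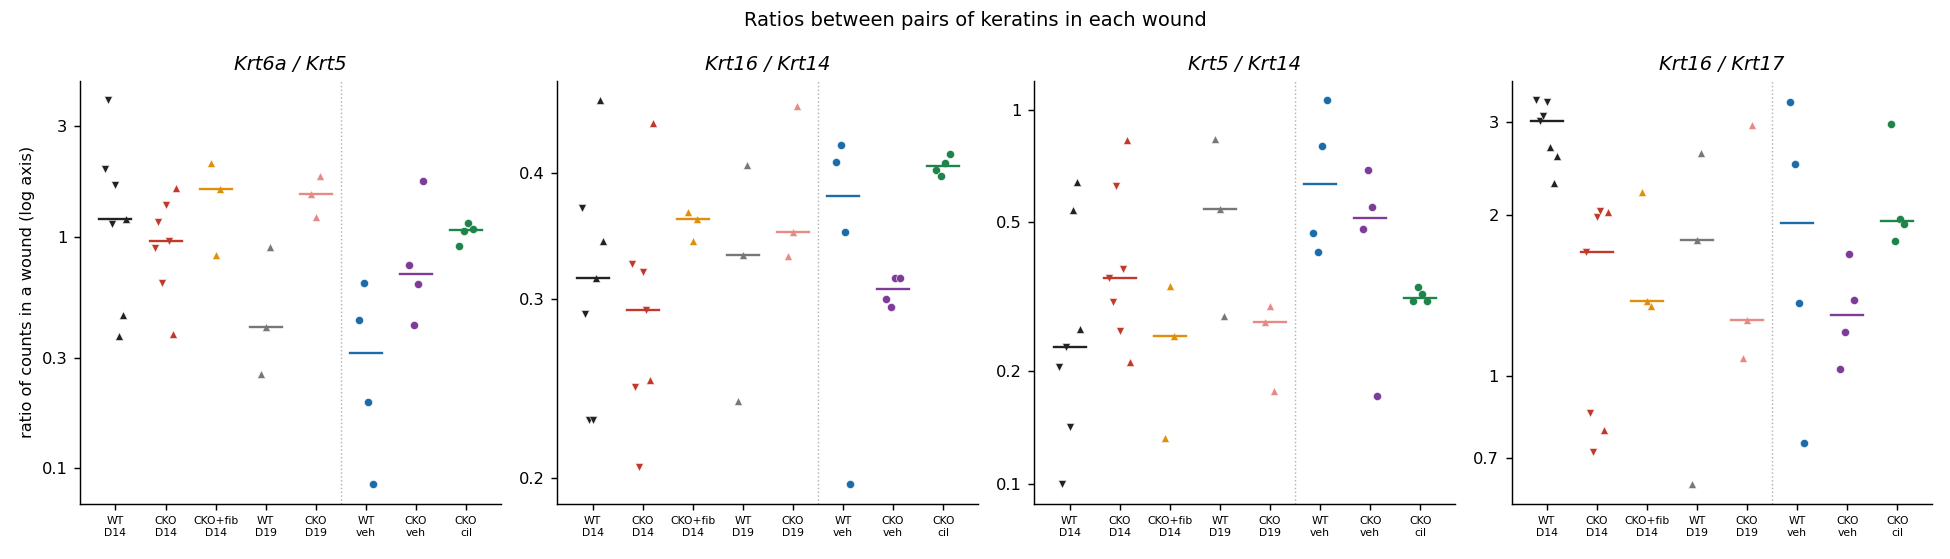
Ratios of counts between pairs of keratins (y axes, log scale) in each wound of the 8 groups, with a bar at the group median; triangles point down or up for the 2 library sets of the first table, and circles mark the second table. Krt16 to Krt14 stays between 0.197 and 0.472 in all wounds whereas Krt6a to Krt5 runs from 0.0851 to 3.89, and Krt16 to Krt17 at day 14 runs from 2.3 to 3.29 in WT wounds against 0.719 to 2.04 in Col5a1CKO wounds.

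Of the 15 ratios between pairs of the 6 genes, 1 was separate between the genotypes at day 14, Krt16 to Krt17, singled out after its values were seen. It ran from 2.3 to 3.29 over the 7 WT and from 0.719 to 2.04 over the 7 Col5a1CKO wounds, so that WT wounds had more Krt16 per Krt17. Within the lower library set the values were 3.01 to 3.29 against 0.719 to 2.04, and within the upper set 2.3 to 2.69 against 0.792 and 2.03. Fibroblast-treated wounds, at 2.21, 1.38 and 1.35, also lay below the WT wounds. At day 19 the genotypes overlapped (0.625, 1.8 and 2.62 in WT against 1.08, 1.27 and 2.95), and so did the vehicle groups (0.746 to 3.26 against 1.03 to 1.69). Cilengitide wounds, at 2.97, 1.79, 1.97 and 1.93, lay above the vehicle Col5a1CKO wounds. Of the 15 ratios, 6 were separate between the genotypes at day 19, 3 between the vehicle groups, 3 between cilengitide and vehicle Col5a1CKO, and 9 between cilengitide and vehicle WT. Single genes were separate in 35.2%, 49.7%, 31.4% and 29.4% of cases, in that order, and in 3.92% between the genotypes at day 14. The 15 ratios are built from 6 genes, so these counts are not independent. With fibroblasts against untreated wounds and between days within a genotype, none was.

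Krt6b to Krt6a differed between the library sets in WT wounds. In day 14 WT wounds it was 1.97 to 2.21 in the lower set and 1.14 to 1.25 in the upper set. Krt5 to Krt14 differed between the sets of the same WT wounds too, at 0.0998 to 0.233 in the lower and 0.26 to 0.64 in the upper set, but overlapped between those of the Col5a1CKO wounds, at 0.256 to 0.624 in the lower set and 0.212 and 0.831 in the upper set. Among Col5a1CKO wounds at day 14, Krt6b to Krt6a was 0.783 to 2.38 in the lower set and 1.04 and 1.16 in the upper set. The stress-to-basal ratio of day 14 WT wounds also split by set, at 0.926 to 1.4 in the lower and 0.574 to 0.904 in the upper set. In Col5a1CKO wounds that ratio overlapped between the sets, at 0.735 to 1.18 in the lower set and 0.662 and 1.16 in the upper set. The transcripts differ little in GC content, from 54.0% for Krt6b and 54.5% for Krt6a to 58.9% for Krt17. Day 14 and day 19 WT wounds have unequal shares of the sets, and so the set moves with that comparison of Krt5, Krt6b and the stress-to-basal ratio.

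Among other epidermal genes, a few wound-activated genes were called in the direction opposite to the keratins. Of 20 such genes at day 14, 3 were called higher in Col5a1CKO than in WT wounds and none lower (median log2 fold change -0.22, against -0.03 over all genes). Of all genes, 8.28% were called there. The 3 were Itga5, the fibronectin receptor subunit (1.90, SE 0.30, edgeR adjusted p = 0.00422), Plaur, the urokinase receptor, which myeloid cells also carry (2.12, SE 0.65, adjusted p = 0.0479), and the transcription factor gene Sox11 (2.13, SE 0.63, adjusted p = 0.0435). Of the 20 values at day 14, 9 were positive and 11 negative. In bulk tissue these 3 calls cannot be assigned to keratinocytes. Markers of other cells were also called higher in these Col5a1CKO wounds (3 of 7 neutrophil, 2 of 7 macrophage, 3 of 5 endothelial, 1 of 6 fibroblast). The part of those cells was not tested. In WT wounds from day 14 to day 19, 5 of the 20 wound-activated genes were called lower (4.25% of all genes were) and none higher, with a median of -1.74. They included Il1f9 (Il36g), a keratinocyte cytokine gene (-2.97, SE 0.40, edgeR adjusted p = 0.00317) and Ereg, an EGF receptor ligand gene (-3.43, SE 0.56, adjusted p = 0.00661). In vehicle Col5a1CKO against vehicle WT wounds 4 were called higher and 1 lower, with cilengitide against vehicle 2 lower and none higher, and against vehicle WT 4 higher and 2 lower. With fibroblasts against WT, 2 were called higher and 3 lower, and in the other 3 comparisons none. Of all genes, 30.9% were called between the vehicle groups and 13.1% with cilengitide against vehicle. The share was 8.58% with cilengitide against vehicle WT and 5.84% with fibroblasts against WT.

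Other epidermal and simple keratins (17 genes) had most of their calls in the second table. In vehicle Col5a1CKO against vehicle WT wounds 12 of 15 tested were called lower and none higher, with a median log2 fold change of -6.83. Krt77, of sweat ducts and interfollicular epidermis, had 1735 CPM in WT on average and 0.76 CPM in Col5a1CKO wounds (log2 fold change -11.20, SE 1.35, edgeR adjusted p = 0.00102). With cilengitide against vehicle 11 of 15 were called higher and none lower, and against vehicle WT 8 of 17 were lower and 1, the simple-epithelium and follicle keratin Krt19, higher (3.71, SE 1.10, edgeR adjusted p = 0.0493). In the first table, lower calls were 2 of 17 with fibroblasts against WT and 1 of 17 at day 19 against day 14 in WT, with none higher there and no call in the other 4 comparisons. Of all genes, 5.84% were called with fibroblasts against WT and 5.74% between the days in WT. In the second table the shares were 30.9%, 13.1% and 8.58%, in the order given above. Krt1 and Krt10, the keratin pair of the layers above the basal one, were counted in this list and also among suprabasal differentiation genes. Of 11 of these tested, 6 were called lower in vehicle Col5a1CKO than in vehicle WT wounds, 5 higher with cilengitide than with vehicle, and 6 lower with cilengitide than in vehicle WT. In cilengitide against vehicle WT wounds all 11 had negative values (median -1.10), whereas 5 of the 6 stress and basal keratins had positive ones.

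Basal keratinocyte genes other than keratins in that last comparison were called higher in 3 of 16 and lower in none (8.58% of all genes were called). Among them were Lama3, a basement membrane gene (1.42, SE 0.33, edgeR adjusted p = 0.0269), and the desmosomal cadherin gene Dsg3 (1.03, SE 0.29, adjusted p = 0.0427). In vehicle Col5a1CKO against WT, 3 of 16 were lower (13.4% of all genes were), and in WT from day 14 to day 19, 3 of 16 were lower (4.25%). Of 16 genes of factors tied to keratin transcription, 6 were called higher and 3 lower in vehicle Col5a1CKO against vehicle WT wounds (30.9% of all genes were called). The lower ones were Tfap2a (-4.02, SE 1.03, edgeR adjusted p = 0.0147), Klf4 (-2.69, SE 0.57, adjusted p = 0.00685) and Myc (-1.19, SE 0.13, adjusted p = 0.000708), and Fosl1, an AP-1 subunit gene, was higher (2.78, SE 0.63, adjusted p = 0.00888). With cilengitide against vehicle, Tfap2a (3.46) and Klf4 (2.10) were called higher and Rara (-1.43) lower (13.1% of all genes were called). In WT wounds Gli1, a target of hedgehog signalling, was higher at day 19 than at day 14 (4.33, SE 1.03, edgeR adjusted p = 0.0332). None of the 16 factors was called between the genotypes at day 14 (8.28% of all genes were) or at day 19 (0.0198%).

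By pattern across wounds, the 5 genes most like the mean log2(CPM + 1) of the 4 stress keratins, among 11487 genes, were Klk6, Gjb6, Sprr1b, Gjb2 and Endou. Their Pearson r was 0.95 to 0.97 over the 23 wounds and 0.96 to 0.99 over the 12 wounds. For the log2 stress-to-basal ratio the likest genes were Mest, Nox4, D0H4S114, Ddr2 and Ptprg, with r of 0.58 to 0.62 over 23 and 0.57 to 0.76 over 12 wounds. Likeness to the ratio was thus looser than likeness to the level. These r are descriptions of wounds that share groups.

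Col5a1, the gene deleted in fibroblasts, had a median of 851 CPM in WT and 369 CPM in Col5a1CKO wounds at day 14, with ranges of 345 to 2404 and 172 to 667 CPM. Per Col1a1 of the same wound it ran from 0.106 to 0.175 over all WT wounds and from 0.0122 to 0.0583 over all Col5a1CKO wounds. The 6 keratinocyte markers, which include Krt5 and Krt14, were above 0 in every wound. At the lowest, day 14 Col5a1CKO replicate a, Krt5 had 58 counts and Krt14 163. Adipocyte markers (5 genes) summed to 104 to 769 CPM in WT against 174 to 437 CPM in Col5a1CKO wounds at day 14 of the first table, and none was called.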

How the data were processed

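The authors deposited raw counts, with no normalization, for each wound. Per the methods, 50 bp single-end reads of stranded libraries were aligned with Hisat2 to NCBI37/mm9, once and with up to 2 mismatches, and counted on exons of RefSeq genes with SeqMonk; whether this covers the cilengitide libraries, whose labels name HISAT2 and mm9, is not given in the sources used here. The first table has a row per RefSeq transcript and its length. Rows without a gene name (30 and 1, or 0.0492% and 5.91e-05% of counts) were left out, and the row with the largest total was kept per symbol.

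Counts were tested with edgeR 4.0.16 (R 4.3.3) after TMM scaling and a filterByExpr filter at a count of 10, by a robust quasi-likelihood fit, on the 2 groups compared, with Benjamini-Hochberg adjustment over all genes. A gene was called at an adjusted p under 0.05 and at least 2-fold. Groups are separate where their CPM, scaled over the 2 groups compared, do not overlap. Printed CPM use TMM sizes over all wounds of a table. The ratio uses counts. Alternatives were DESeq2 1.42.0 (the study's own tool), other scalings and filters, all groups in one fit, the replicate block, the library set, summed rows, other folds, leaving out each replicate, and, added after seeing the data, limma 3.58.1 on log2 CPM with a prior count of 2. Library sets were split at the widest gap (1.54, the next being 0.39) in GC-rich minus GC-poor median log2 level. The edgeR and DESeq2 steps were tested on simulated data, and the limma step was not. Python 3.11.15, numpy 2.4.6, pandas 2.3.3 and matplotlib 3.10.9 were used.

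The members, lists and named-gene rule were chosen with earlier results of these data known. Named are the 6 keratins, from each list and comparison the called gene with the largest change in each direction and up to 2 more by adjusted p, the 5 likest genes of each pattern, and Col5a1. Lists were other keratins, basal, wound-activated, regulator, follicle and suprabasal genes, and markers of 7 cell types. The figure legends count the wounds as separate mice, which the labels do not state. Unwounded skin was not analysed here. Promoter and protein sequences are not shown. One gene that the naming rule picks is not reported here.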

Additional observations from a re-analysis of the deposited data

Results flagged for a closer look

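Dixon's criterion was applied to 35 sets of values, the 6 keratins and the ratio in each of 5 groups of 4 to 10 wounds. In these, 9 highest values stood apart from the rest of their group. Chance gives about 1 in 20 for independent sets of near-normal values. The CPM were taken without logs and the 6 keratins moved together over the wounds of a table, so 9 of 35 cannot be set against that rate. The 9 values come from 2 wounds. WT day 14 replicate g was apart with 35701 CPM of Krt14, 11069 of Krt6a, 12229 of Krt16 and 4732 of Krt17. Its stress-to-basal ratio, 0.904, was within its group. Vehicle Col5a1CKO replicate 4 was apart with 8720 CPM of Krt14, 2623 of Krt6a, 4997 of Krt6b, 2748 of Krt16 and 1983 of Krt17. Its ratio of 1.21 was the highest of its group and was not apart by this criterion.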

How the results depend on the processing

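Of the log2 fold changes under all alternatives, 1000 kept direction and side of the threshold, 44 changed sign, 34 passed the threshold and 20 lost it. Of the counts of called keratins 170 kept within 1.5 times the reported one and 33 moved, and of the ratio differences 131 kept, 8 moved and 2 changed sign. The causes were not tested. Between the genotypes at day 14, limma called 5 keratins. At day 19, Krt16 had -0.37 and Krt17 -0.35 under library size only, and -0.03 and -0.01 with all groups in one fit. For fibroblasts against untreated wounds, Krt6b had -0.01 and Krt16 -0.13 with the library set as a covariate, and Krt16 -0.05 within the upper set. For fibroblasts against WT, 1 keratin was called with the covariate and 1 within the upper set, and Krt17 had -0.11 and -0.12. For WT day 19 against day 14, DESeq2 called 3, limma 2 and the covariate fit 4, whereas 0 were called within the upper set, with the rows of a symbol summed, under library size only, with DESeq2 size factors in edgeR, with no filter on low counts and with every group fitted together. For Col5a1CKO day 19 against day 14, limma gave Krt5 2.47, Krt14 3.12, Krt6a 3.19, Krt6b 3.07 and Krt16 3.50, and Krt17 had -0.92 with the covariate and -0.81 within the upper set. Between the vehicle groups limma called 3. For cilengitide against vehicle, DESeq2 called 3, limma 4 and the fit of all groups 1, and against vehicle WT DESeq2 called 2.

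With Krt16 to Krt14 alone, the log2 ratio difference was 0.25 between genotypes at day 19, 0.03 for WT day 19 against day 14, -0.11 between the vehicle groups and 0.30 for cilengitide against vehicle WT. With Krt6a to Krt5 alone it was 1.73, -1.36, 1.56 and 2.01 in that order, 0.63 for fibroblasts against untreated wounds and 0.72 for Col5a1CKO day 19 against day 14.

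In 104 fits that each left out 1 replicate, the genotype difference at day 19 ran from -0.43 to 0.32 for Krt14, -0.34 to 0.48 for Krt16 and -0.45 to 0.36 for Krt17. Krt16 with fibroblasts against WT ran from -0.51 to 0.10. Col5a1CKO day 19 against day 14 ran from -0.53 to 0.53 for Krt5, -0.36 to 0.77 for Krt14, -0.40 to 0.84 for Krt6a, -0.35 to 0.71 for Krt6b, -0.41 to 1.09 for Krt16 and -0.36 to 1.27 for Krt17. Counts of called keratins ran from 0 to 1 for WT day 19 against day 14, 0 to 4 between the vehicle groups and 0 to 6 for cilengitide against vehicle.

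The labels do not say that replicate letters pair wounds. Deviations of wounds with the same letter correlated at 0.177 on average at day 14 (over 0.1 in 5 of 7 pairs), -0.376 at day 19 (in 0 of 3) and 0.103 for fibroblasts (in 2 of 3). With the replicate block, 0 keratins were called in these 3 comparisons, with log2 fold changes of -5.22 to -3.77 (adjusted p of 0.0519 to 0.157) at day 14 and 5.0 to 5.92 (0.0825 to 0.142) for fibroblasts, by edgeR.

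The day 14 Col5a1CKO replicate with 481 keratin counts limits the precision of its ratios. Elsewhere the spread between wounds, not depth, sets the error.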
